A study of Homo sapiens with 12 samples.

Results

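The KLHL (kelch-like) genes were the protein-coding genes whose GENCODE symbol begins with KLHL followed by a digit, after the Ensembl identifiers in the files were matched without their version. There were 37 such genes among the 60609 genes listed for each library. The family was chosen by the measured fall of KLHL4 counts in these data, so the values of KLHL4 are given as a description and without a test. The other members entered by their symbols, whatever their values. The data come from K562 cells, an established human leukemia line with erythroid features, derived from chronic myeloid leukemia. The cells received the solvent DMSO (3 libraries) or FT671 (3 libraries), a compound that inhibits USP7, an enzyme that removes ubiquitin from proteins, at 10 µM for 48 h. RNA was measured by sequencing of total RNA depleted of ribosomal RNA. The histone modification ChIP samples of the same study were not analysed here.

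KLHL proteins carry a BTB domain, a BACK domain and a set of kelch repeats. The BTB domain binds the scaffold cullin-3, the kelch repeats bind a substrate, and the cullin brings in the RING protein RBX1, so that each KLHL protein can act as the substrate receptor of a ubiquitin ligase. Substrates differ between members and include mitotic kinases, WNK kinases of salt transport and components of vesicle coats and the Wnt pathway.

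Total counts ranged from 5320245 to 14250500 in the DMSO libraries and from 4555220 to 11437804 in the FT671 libraries. The detection floor was set at 3 counts per library, which corresponded to between 0.208 and 0.666 CPM (counts relative to the TMM-scaled library size). Floors and counting intervals cover counting error only, as PCR copies were not told apart by molecular identifiers. Of 10 markers of K562 cells and their erythroid program, 9 passed the count filter, and their summed level was between 1410 and 1431 CPM with DMSO and between 1127 and 1169 CPM with FT671. Of these, 6 were lower and 3 higher, in opposite directions within the erythroid program: the transcription factor gene TAL1 (log2 fold change −0.94) was lower, and the fetal globin genes HBG1 (1.41) and HBG2 (1.22), near-identical copies whose counts are uncertain, were higher. Of 10 markers of other lineages 5 were tested, 2 of them were higher (LYZ and EPCAM, both with a log2 fold change of 0.49) and 0 lower by edgeR's test, and the summed level of the list was between 137 and 143 CPM with DMSO and between 180 and 187 CPM with FT671. CD14 had 0, 1 and 1 counts in the DMSO libraries and 0 in the FT671 libraries, under the floor in both groups. The part of these shifts in the results on KLHL genes was not tested. In bulk RNA, fewer cells that express a gene and less RNA per cell cannot be told apart.

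Of the 37 KLHL genes, 21 had enough counts to be tested, among 13895 genes in all. Apart from KLHL4, 7 of the 20 others tested were lower with FT671 at an adjusted p-value of 0.05 (35%, beside 26.5% of all genes tested) and 3 were higher (15%, beside 23.6%), by edgeR's quasi-likelihood test adjusted over all genes. The 7 lower genes were KLHL26, KLHL36, KLHL21, KLHL20, KLHL22, KLHL18 and KLHL42, and the 3 higher genes were KLHL17, KLHL15 and KLHL7. The other 10 were not called, 8 of them with a negative and 2 with a positive log2 fold change. At 1e-05, the threshold of the study's methods, 1 gene was lower (KLHL36, beside 4.13% of all genes) and 0 were higher (beside 1.79%) by edgeR's test. Over both directions 50.1% of all genes were called at 0.05 and 5.92% at 1e-05. At an unadjusted p-value under 0.05 edgeR gave 8 lower and 3 higher genes, and DESeq2's Wald test at 1e-05 gave 3 lower genes (KLHL36, KLHL21 and KLHL26) and 1 higher gene (KLHL17). Every FT671 library was below every DMSO library for 13 of the 20 genes (30.3% of all genes tested) and above for 3 (26.8%), and the groups overlapped for 4. For these 20 genes the log2 fold changes had a median of −0.25, beside −0.01 for all genes tested. All fold changes are relative to TMM scaling.

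**Figure D1:**
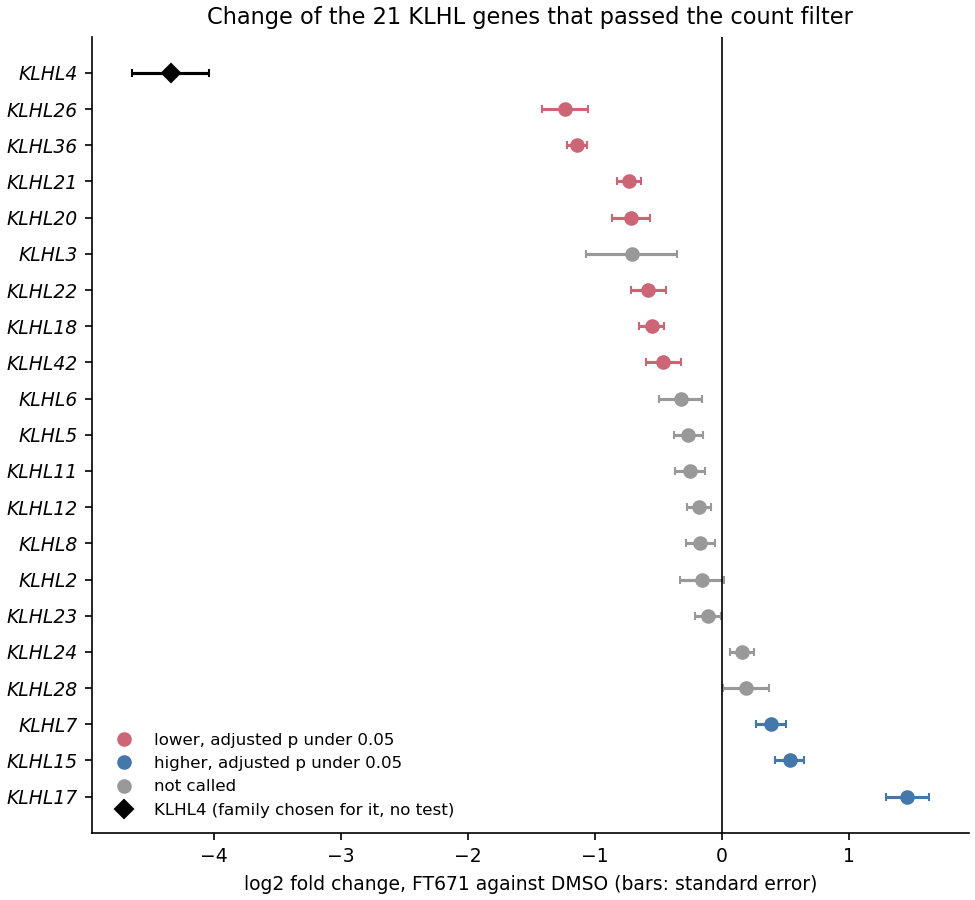
Change of each KLHL gene that passed the count filter. The horizontal axis is the log2 fold change of FT671 against DMSO (3 libraries each), points are estimates of edgeR's fit, bars are standard errors, and colors give the call at an adjusted p-value of 0.05. KLHL4, at −4.34, is drawn as a black diamond without a call, and the other genes lie between −1.23 (KLHL26) and 1.46 (KLHL17).

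Summed over all 37 genes, KLHL expression was 717, 726 and 745 CPM in the DMSO libraries and 577, 591 and 603 CPM in the FT671 libraries. The groups did not overlap, with means of 729 ± 14.6 and 590 ± 12.8 CPM (SD, n = 3). KLHL36 and KLHL21 together made up 72.1% of this difference. KLHL4, a low-level gene, hardly weighed in the sum.

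KLHL4 (ENSG00000102271, chrX:87517409-87670050 in hg38, + strand) encodes a member whose substrate is not well established. It had 107, 88 and 46 counts in DMSO replicates 1, 2 and 3 and 2, 2 and 4 counts in FT671 replicates 1, 2 and 3. Scaled to library size these were 7.41, 8.06 and 8.5 CPM with DMSO and 0.444, 0.361 and 0.357 CPM with FT671. The DMSO libraries were close to one another and far above the FT671 libraries, of which 2 were under the floor of 3 counts. The ratio of the means was 20.6 (7.99 ± 0.55 against 0.388 ± 0.0491 CPM, SD, n = 3). From the pooled counts of 241 and 8 the ratio was 20.8, with a 95% exact interval of 10.4 to 48.7 that describes counting error in these libraries and tests nothing. The fitted log2 fold change was −4.34.

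The bases before the first annotated start of KLHL4 are shown since they held fewer CG dinucleotides than the CG-richest starts of the members called lower. Those RefSeq starts held 12 to 38, although another start of KLHL26 held 3. The RefSeq promoter table (GRCh38.p14) held 33 of the 37 genes. There the 250 bases before the start of KLHL4 held 1 CG dinucleotide, and 14.2% of all genes had as few or fewer. This window had 50% G or C, beside 50.8% for KLHL20, which was called lower. Low CG counts were not particular to KLHL4, as KLHL12 (0), KLHL5 (1), KLHL6 (2) and KLHL3 (3), which were not called, had them too. CG-rich promoters are the kind of sequence to which KDM2B, a subunit of the Polycomb complex PRC1.1 that the study examined, binds when they are unmethylated. Because the RefSeq window lies within the 5′ end of another annotated transcript, the 250 bases before the earliest GENCODE start are printed (hg38, chrX:87517159-87517408, + strand, 5′ to 3′), with CG dinucleotides in capitals. They held 3 CG dinucleotides and 32% G or C.

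KLHL4: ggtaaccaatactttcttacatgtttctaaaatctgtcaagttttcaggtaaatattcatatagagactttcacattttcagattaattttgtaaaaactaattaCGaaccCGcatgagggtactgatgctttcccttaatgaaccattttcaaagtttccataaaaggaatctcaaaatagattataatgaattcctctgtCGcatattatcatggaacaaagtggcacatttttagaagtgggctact

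No exon of another annotated gene overlapped those of KLHL4. The nearest protein-coding genes were DACH2, 685 kb before it, and CPXCR1, 1077 kb after it, and both had 0 counts in all libraries. Within 3 Mb, 5 other protein-coding genes were tested. CHM, a Rab escort protein gene 1470 kb before KLHL4, was lower with a log2 fold change of −0.76 (adjusted p = 0.00244 by edgeR's test). APOOL, SATL1, ZNF711 and POF1B had log2 fold changes between −0.20 and 0.15 and were not called.

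The coding sequence of KLHL4 shared 70.0% of aligned nucleotides with that of KLHL5 (97.6% of the shorter sequence aligned) and 69.1% with that of KLHL1 (99.3% aligned). Among the 666 pairs of family members, 5 shared at least 65% (KLHL9 and KLHL13 87.3%, KLHL1 and KLHL5 70.1%, and KLHL2 and KLHL3 69.8%, besides these pairs with KLHL4), and the other pairs shared 50.1 to 63.4%. KLHL5, the one of these relatives that was tested, stood at 48.5, 51.6 and 62.3 CPM with DMSO and at 39.8, 46.7 and 46.8 CPM with FT671. All FT671 libraries were below all DMSO libraries, but the log2 fold change of −0.26 (SE 0.112) missed the threshold (adjusted p = 0.0665). An antisense RNA, ENSG00000249207, shares 448 exon bases with KLHL5, and the strand setting of the counting is not given in the sources used here. KLHL1 had 0 counts in all libraries. KLHL2 and KLHL3, receptors for the WNK kinases, had log2 fold changes of −0.16 (adjusted p = 0.471) and −0.71 (adjusted p = 0.118).

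**Figure D2:**
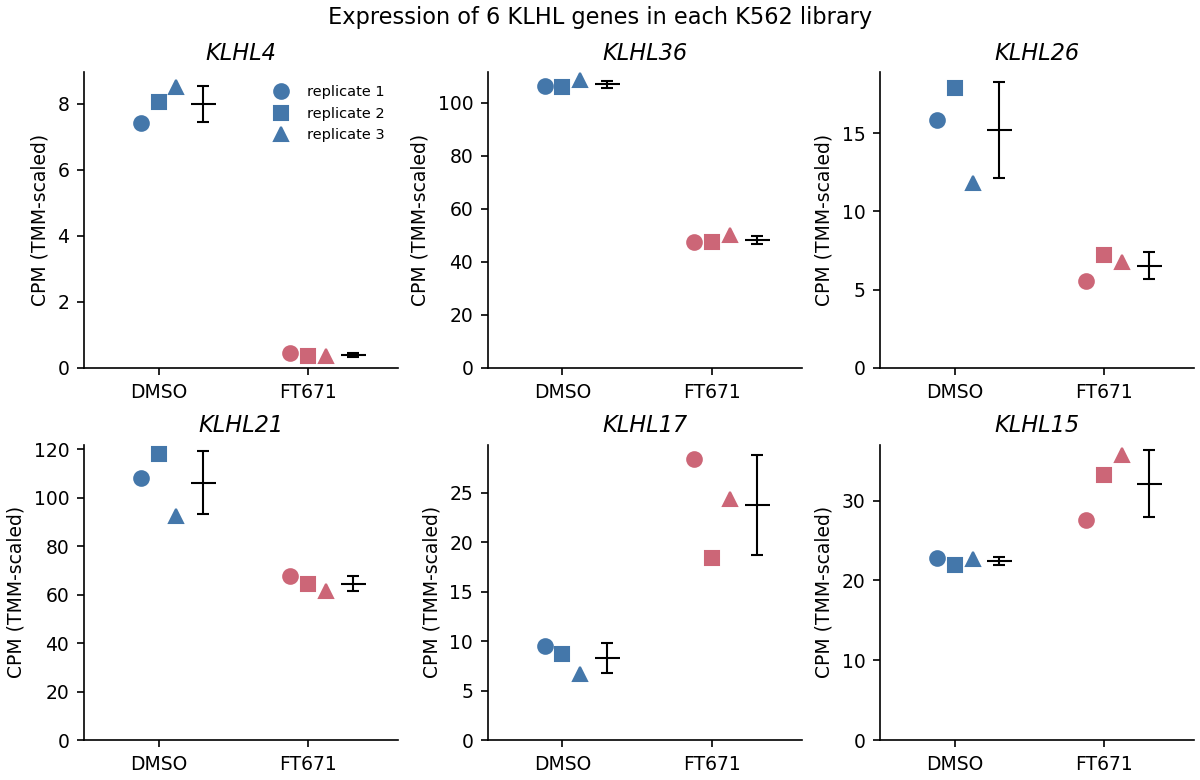
Expression of 6 KLHL genes in each library. The vertical axes are CPM with TMM-scaled library sizes and start at 0, symbols mark replicates 1, 2 and 3, and bars give the mean and SD of the 3 libraries of a treatment. In each panel the FT671 libraries lie wholly on one side of the DMSO libraries.

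KLHL36 fell from a level far above that of KLHL4. It encodes a cullin-3 adapter whose substrates are little known (ENSG00000135686, chr16:84648511-84667686, + strand). Its counts were 1539, 1159 and 587 with DMSO and 214, 263 and 561 with FT671. These correspond to 107, 106 and 109 CPM and to 47.5, 47.4 and 50.1 CPM, so that the libraries of a treatment nearly coincided. KLHL36 was 2.21-fold lower (log2 fold change −1.14, SE 0.0787, adjusted p = 1.18e-07 by edgeR's test), and this call at 1e-05 held in all alternatives run.

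In contrast to KLHL4, the promoter of KLHL36 was among the richest in CG dinucleotides in the family. Its 250 bases before the RefSeq start (GRCh38.p14, chr16:84648261-84648510, + strand) held 38 CG dinucleotides and 80.8% G or C, and are printed in the same way.

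KLHL36: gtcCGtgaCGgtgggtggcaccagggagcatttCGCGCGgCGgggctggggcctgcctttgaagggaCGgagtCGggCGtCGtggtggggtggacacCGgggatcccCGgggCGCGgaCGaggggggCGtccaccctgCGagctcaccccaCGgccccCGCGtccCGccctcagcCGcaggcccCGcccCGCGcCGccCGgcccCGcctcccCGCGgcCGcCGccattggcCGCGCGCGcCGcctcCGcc

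KLHL26, an orphan member on chromosome 19, showed the lowest log2 fold change after KLHL4. It stood at 15.9, 17.9 and 11.8 CPM with DMSO and at 5.55, 7.22 and 6.79 CPM with FT671. No FT671 library reached the lowest DMSO library, although the DMSO libraries were spread (15.2 ± 3.07 against 6.52 ± 0.865 CPM, SD, n = 3). The log2 fold change was −1.23 (SE 0.179, adjusted p = 6.87e-05 by edgeR's test).

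KLHL21 (ENSG00000162413, chr1:6590724-6614607, − strand), which directs the ubiquitination of Aurora B in mitosis, had 1560, 1289 and 500 counts with DMSO and 305, 357 and 690 counts with FT671. In CPM these were 108, 118 and 92.4 against 67.7, 64.4 and 61.7, without overlap. The log2 fold change was −0.73 (SE 0.0956, adjusted p = 2.90e-05 by edgeR's test). KLHL22, which releases the kinase PLK1 from kinetochores, stood at 19.1, 18.2 and 17.9 CPM with DMSO and at 10.2, 12.4 and 13.7 CPM with FT671. Its groups did not overlap (log2 fold change −0.58, SE 0.134, adjusted p = 0.00273), and it shares 478 exon bases with the pseudogene KRT18P5, which had at most 12 counts in a library. KLHL18, an adapter for Aurora A, fell from 51.5, 49.4 and 49.5 CPM to 34.9, 31.2 and 36.3 CPM. The highest FT671 library was well below the lowest DMSO library (log2 fold change −0.55, SE 0.0974, adjusted p = 3.62e-04 by edgeR's test). KLHL18 shares 178 exon bases with KIF9, a gene of the other strand with a log2 fold change of 0.44. KLHL42, an adapter for the microtubule-severing protein katanin, fell from 16.4 ± 0.537 to 12.2 ± 1.6 CPM (SD, n = 3, log2 fold change −0.46, adjusted p = 0.0121 by edgeR's test). The call of KLHL42 was lost without DMSO replicate 2 (log2 fold change −0.42) and without FT671 replicate 3 (−0.36). It shares 569 exon bases with an antisense RNA, ENSG00000256747, whose log2 fold change was −0.16.

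KLHL20, an adapter for the death-associated kinase DAPK1 and for PML, stood at 21.2, 18 and 15 CPM with DMSO and at 11.5, 11.7 and 10.7 CPM with FT671. The FT671 libraries were close together and all below the DMSO libraries. The log2 fold change was −0.71 (SE 0.149, adjusted p = 0.00127 by edgeR's test).

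Of the 3 members that rose, KLHL17 (chr1:960584-965719, + strand), known as actinfilin and as an adapter for a kainate receptor subunit in neurons, rose most. It had 138, 95 and 36 counts with DMSO and 128, 102 and 273 counts with FT671, or 9.56, 8.7 and 6.65 CPM against 28.4, 18.4 and 24.4 CPM. The lowest FT671 library was above all DMSO libraries, and the mean rose 2.75-fold in the fit (log2 fold change 1.46, SE 0.171). The adjusted p-value of 1.05e-05 by edgeR's test was just above 1e-05. KLHL17 lies between NOC2L, 1.28 kb before it, and PLEKHN1, 0.763 kb after it. NOC2L rose with a log2 fold change of 0.66 (adjusted p = 1.91e-05) and PLEKHN1, with 6 to 16 counts a library, with one of 1.57 (adjusted p = 0.0108).

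The sequence before KLHL17 (GRCh38.p14, chr1:960334-960583, + strand, 25 CG dinucleotides, 73.2% G or C) is printed as that of the member that rose most. It moved against the direction of KLHL36, also from a CG-rich start.

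KLHL17: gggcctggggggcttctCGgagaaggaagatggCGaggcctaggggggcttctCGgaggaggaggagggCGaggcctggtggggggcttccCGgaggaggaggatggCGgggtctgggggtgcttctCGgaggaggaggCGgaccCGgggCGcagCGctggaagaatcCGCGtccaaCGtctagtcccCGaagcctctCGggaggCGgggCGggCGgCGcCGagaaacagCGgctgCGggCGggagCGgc

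KLHL15, an adapter for the B′β subunit of phosphatase PP2A and for the DNA end resection factor CtIP, rose from 22.8, 21.9 and 22.7 CPM to 27.5, 33.2 and 35.7 CPM. The FT671 libraries were spread, but all were above the tight DMSO libraries (log2 fold change 0.54, SE 0.115, adjusted p = 0.00153 by edgeR's test). KLHL7, mutated in a form of retinitis pigmentosa, rose from 19.9, 16.8 and 17.9 CPM to 26.2, 23.3 and 23 CPM. Its groups did not overlap (log2 fold change 0.39, SE 0.119, adjusted p = 0.0138 by edgeR's test), and the call was lost without DMSO replicate 2 (log2 fold change 0.34).

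Among the members that were not called, KLHL12, an adapter for the COPII coat protein SEC31A and for Dishevelled, and KLHL24, an adapter for keratin 14, had the highest levels per exon length in DMSO. KLHL12 had 623, 460 and 242 counts with DMSO and 180, 207 and 419 counts with FT671, or 43.1, 42.1 and 44.7 CPM against 40, 37.3 and 37.4 CPM. The FT671 libraries were all lower, by a small margin (log2 fold change −0.18, SE 0.0936, adjusted p = 0.124). KLHL24 had 1275, 1038 and 570 counts with DMSO and 425, 629 and 1254 counts with FT671, or 88.3, 95.1 and 105 CPM against 94.4, 113 and 112 CPM. Here the groups overlapped (log2 fold change 0.16, SE 0.0925, adjusted p = 0.165), and KLHL24 was called higher without DMSO replicate 3 (log2 fold change 0.23). The tested members with the lowest levels per exon length in DMSO were KLHL28, KLHL6 and KLHL3. KLHL28 had 106, 114 and 62 counts with DMSO and 50, 64 and 113 with FT671 (log2 fold change 0.20, SE 0.181, adjusted p = 0.390). KLHL28 shares 243 exon bases with TOGARAM1, a gene of the other strand with a log2 fold change of 0.67, and without DMSO replicate 1 its own log2 fold change turned to −0.0076. KLHL6, a lymphoid member that acts on the mRNA-decay factor roquin-2, had 110, 88 and 47 counts with DMSO and 27, 32 and 79 with FT671 (log2 fold change −0.32, SE 0.171, adjusted p = 0.132). KLHL3 had 25, 19 and 8 counts with DMSO and 2, 6 and 14 with FT671. At these counts its log2 fold change of −0.71 had a standard error of 0.361 and was not called. KLHL11, KLHL8 and KLHL23 had log2 fold changes between −0.25 and −0.11 and were not called. KLHL23 shares 429 exon bases with PHOSPHO2 on the same strand.

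Levels were compared between genes as RPKM, the CPM divided by the exon length in kilobases. With DMSO, KLHL21 had the highest level at 16.2, 17.7 and 13.9 RPKM. KLHL12 (12.4 ± 0.373 RPKM, SD, n = 3), KLHL24 (11.1 ± 0.994), KLHL36 (10.7 ± 0.125) and KLHL23 (9.74 ± 1.31) followed. The libraries of KLHL21 were all above those of KLHL12, whereas each of the other neighbours in this order overlapped in its libraries, and dividing by the longest transcript instead put KLHL36 (14.2 RPKM) before KLHL12 (13.1). KLHL18 (7.10 ± 0.169 RPKM) was below KLHL23 in every library, and KLHL5 (5.90 ± 0.788 RPKM) below KLHL18. KLHL4 stood at place 18 with 1.20, 1.31 and 1.38 RPKM, and KLHL3 was the lowest tested at 0.139 ± 0.0125 RPKM.

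With FT671 the order of levels changed at the top. KLHL24 was first at 12.3 ± 1.23 RPKM, KLHL12 second at 10.9 ± 0.425 and KLHL21 at place 3 with 9.69 ± 0.456 (SD, n = 3). The libraries of KLHL24 and KLHL12 overlapped in this group too. KLHL36 moved from place 4 to place 8 (4.83 ± 0.153 RPKM), KLHL17 from 15 to 5 (6.98 ± 1.48 RPKM) and KLHL4 from 18 to 24 (0.0629 ± 0.00798 RPKM).

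**Figure D3:**
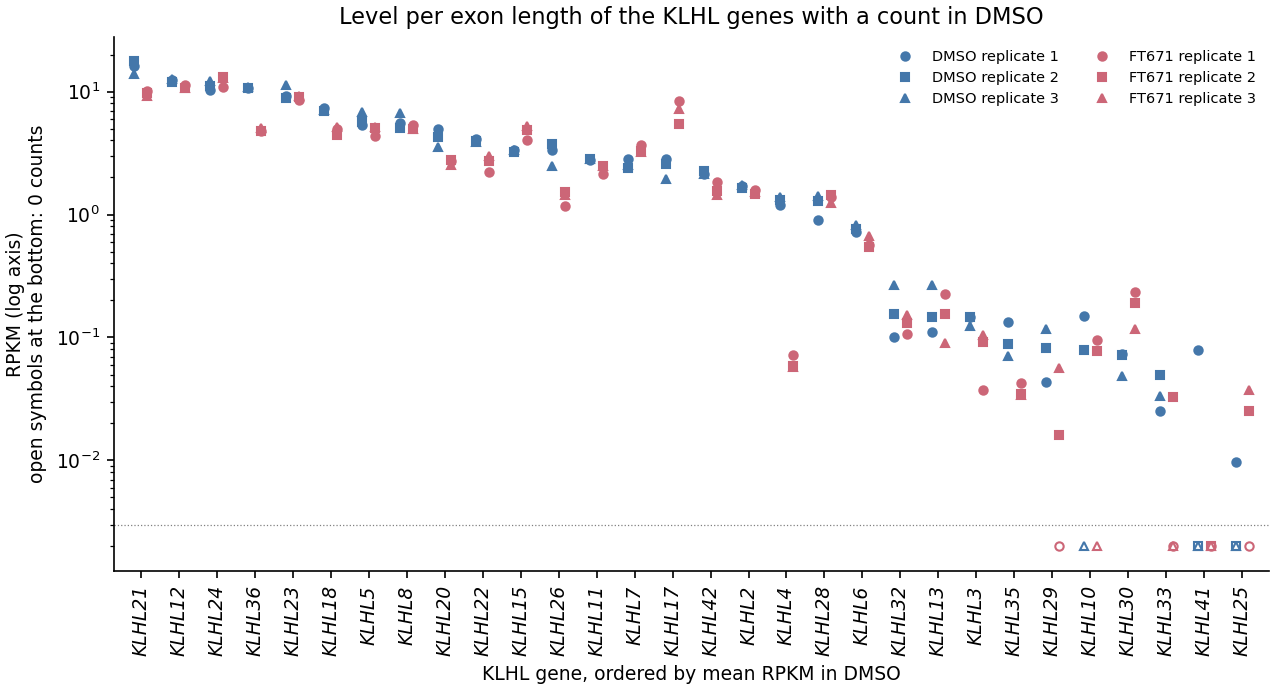
Level of the KLHL genes with a count in DMSO, per exon length. The vertical log axis is RPKM, genes are ordered by their mean in the 3 DMSO libraries, each symbol is a library, and open symbols at the bottom mark 0 counts. The mean of KLHL4 drops from 1.30 to 0.0629 RPKM, where its FT671 libraries overlap those of KLHL3, while that of KLHL17 rises from 2.44 to 6.98.

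The other 16 KLHL genes did not pass the filter, and none of them had more than 11 counts in a library. KLHL1, KLHL9, KLHL31, KLHL34, KLHL38 and KLHL40 had 0 counts in all 6 libraries, which allows up to 3 counts in each. KLHL14, KLHL25, KLHL33 and KLHL41 had at most 3 counts in any library. KLHL31, KLHL40 and KLHL41 are muscle members of the family. KLHL10, a testis member, had at most 5 counts, and KLHL30, KLHL32, KLHL29, KLHL35 and KLHL13 at most 5, 7, 10, 10 and 11. KLHL13, with 11, 11 and 10 counts with DMSO and 7, 6 and 7 with FT671, is a close relative of KLHL9, with which it directs the ubiquitination of Aurora B. These counts were too low for the main test. In CPM, all FT671 libraries were above all DMSO libraries for KLHL30 (0.447 to 0.888 against 0.185 to 0.277). For KLHL35 all were below (0.179 to 0.222 against 0.370 to 0.692). These values are near the floor. Without a filter, edgeR fitted 30 members other than KLHL4, of which 8 were lower and 3 higher at 0.05. KLHL9 lies on the short arm of chromosome 9, where 22 protein-coding genes, KLHL9 included, stand between FOCAD and ELAVL2. Of these 21 had 0 counts in all libraries, among them MTAP, which most cells express, and CDKN2B, and the 22 together had 1 count, from CDKN2A. K562 cells are known to have lost CDKN2A, and whether KLHL9 is within that loss was not tested.

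CG content before the start was compared across the family as a description. At least 10 CG dinucleotides in the 250 bases before a RefSeq start (the start with the most, where a gene had several) were found for 20 of the 33 KLHL genes in the table, beside 54.9% of all genes in it. All 7 members called lower other than KLHL4 had at least 10 (12 to 38, median 32), as had 2 of the 3 called higher (KLHL17 with 25 and KLHL7 with 21, but KLHL15 with 5) and 5 of 9 that were not called and listed. Tested members had a median of 22.5 and members that were not tested a median of 8. Of the 20 tested members listed, 14 had at least 10. The shares among all genes tested and among all genes called lower were not computed. Whether the members called lower differ in CG content from other expressed genes was not tested. The sequence AGATAA, a motif of the erythroid factor GATA1 (TTATCT on the other strand), was in the windows of KLHL7, KLHL12 and KLHL15, and in those of 11.1% of all genes. Neither count says whether a factor binds there.

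The other genes of cullin-3 ligases were taken from a list of 30 genes, all of which were tested. Of these 3 were lower, 9 higher and 18 not called (median log2 fold change 0.12), beside 26.5% lower and 23.6% higher among all genes tested. The list was chosen with earlier results of these data known. The scaffold CUL3 itself fell from 14.5 ± 0.593 to 7.58 ± 0.41 CPM (SD, n = 3), with 212, 151 and 81 counts against 32, 43 and 88. Every FT671 library was below every DMSO library (log2 fold change −0.92, SE 0.142, adjusted p = 1.20e-04 by edgeR's test). RBX1, the RING subunit that CUL3 shares with other cullins, stood at 43.97 ± 2.53 and 47.0 ± 0.608 CPM and was not called (log2 fold change 0.09, adjusted p = 0.427). The other lower genes by edgeR's test were DCUN1D3 (log2 fold change −1.44, adjusted p = 2.46e-04) and CAND2 (−0.37, adjusted p = 0.0145). DCUN1D3 acts in the attachment of NEDD8 to cullins, and CAND2 is a paralog of the exchange factor CAND1. The largest rises were those of DCUN1D5 (0.58, adjusted p = 2.74e-04), COPS9 (0.57, adjusted p = 0.00254) and COPS7A (0.49, adjusted p = 0.00133). COPS9 and COPS7A encode subunits of the COP9 signalosome, which removes NEDD8 from cullins.

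The BTB-kelch genes without a KLHL symbol encode proteins with a BTB domain and kelch repeats. Some of them, KEAP1 among them, bind cullin-3, and whether every listed one does was not examined. Of 14, 10 were tested, 6 were lower, 1 was higher and 3 were not called, with a median log2 fold change of −0.35 (all genes tested: 26.5% lower, 23.6% higher). These genes were listed with earlier results of these data known, and the list was not tested as a set. ENC1, the most lowered, fell from 43.4 ± 2.47 to 16.3 ± 1.3 CPM (SD, n = 3, log2 fold change −1.41, adjusted p = 2.70e-07 by edgeR's test). KEAP1, the receptor that holds the stress factor NRF2 in check, had 1585, 1221 and 519 counts with DMSO and 279, 362 and 707 with FT671. In CPM it fell from 106 ± 8.65 to 63.5 ± 1.69 (SD, n = 3, log2 fold change −0.74, adjusted p = 8.24e-06 by edgeR's test). KBTBD7 had a log2 fold change of −0.79 (adjusted p = 0.00480). The 1 higher gene was IVNS1ABP, an actin-associated member (log2 fold change 0.41, adjusted p = 8.47e-04).

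Genes that encode reported substrates of KLHL proteins were counted next, with the reservation that ubiquitination acts on proteins, which were not measured here. Of 28 such genes 24 were tested, 14 were lower, 4 were higher and 6 were not called (median log2 fold change −0.36). Beside this stand the same shares of all genes tested, 26.5% lower and 23.6% higher. The substrates were listed with earlier results of these data known, and the list was not tested as a set. The largest falls were those of DAPK1, a KLHL20 substrate (log2 fold change −1.41, adjusted p = 2.73e-07), FLNC, which encodes a filamin and substrate of the muscle member KLHL31 (−1.07, adjusted p = 1.77e-07), and TUT1, a KLHL7 substrate (−1.06, adjusted p = 1.81e-04). The largest rises were those of UNC119, a KLHL18 substrate (0.96, adjusted p = 1.12e-05), ACLY, a KLHL25 substrate (0.62, adjusted p = 3.62e-06), and SEC31A, a KLHL12 substrate (0.24, adjusted p = 0.0211). PLK1, a substrate of KLHL22, fell from 396 ± 22.1 to 211 ± 3.03 CPM (SD, n = 3, log2 fold change −0.90, adjusted p = 2.41e-07 by edgeR's test). DEPDC5, another listed substrate of KLHL22, was not called (−0.33, adjusted p = 0.168). AURKA, a substrate of KLHL18 besides UNC119, which rose, was lower (−0.78, adjusted p = 5.55e-06). AURKB, a substrate of KLHL21, was at 104 ± 14.7 and 100 ± 6.35 CPM and was not called (log2 fold change −0.06, adjusted p = 0.635). Of the Dishevelled genes, substrates of KLHL12, DVL1 fell (−0.88, adjusted p = 5.25e-06), and DVL2 (0.07) and DVL3 (−0.13) were not called. KRT14, the keratin substrate of KLHL24, had 0 counts in all libraries. WNK1 and WNK4, substrates of KLHL3 and KLHL2, had log2 fold changes of −0.32 (adjusted p = 0.00471) and −0.40 (adjusted p = 0.00579). RC3H2, the roquin-2 gene, had one of −0.32 (adjusted p = 0.0122).

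**Figure D4:**
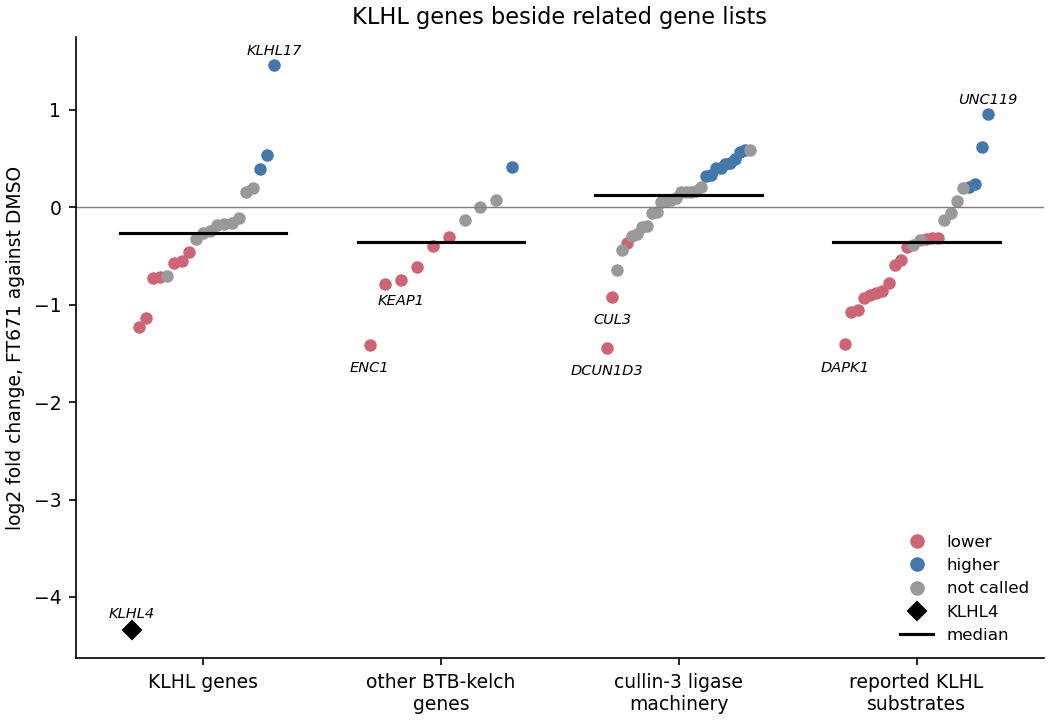
Log2 fold changes (FT671 against DMSO, vertical axis) of the tested KLHL genes, of other BTB-kelch genes, of cullin-3 ligase machinery and of reported KLHL substrates. Each point is a gene ordered by its value, colors give the call at an adjusted p-value of 0.05, and lines are medians, at −0.26 for the KLHL genes with KLHL4 included, −0.35, 0.12 and −0.36.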

How the data were processed

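The 6 RNA-seq libraries of K562 cells hold raw read counts per gene, deposited by the authors without normalization. Per the labels and the study's methods, STAR (two-pass mode, hg38) aligned and counted the paired-end reads. The version, annotation release and strand setting are not given in the sources used here, and 0 columns went unmapped. Groups and replicate numbers follow the labels, and the study describes independent experiments. Of 60609 genes, 60295 were matched to GENCODE release 44, which gave symbols, positions and exon lengths.

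After filterByExpr and TMM scaling, edgeR's quasi-likelihood test (edgeR 4.0.16, limma 3.58.1, R 4.3.3) compared the treatments over 6 libraries without covariates. P-values were adjusted by Benjamini-Hochberg over 13895 genes, and a standard error is the log2 fold change divided by the square root of F. On simulated data 186 of 196 changed genes among 13682 tested (94.9%) were recovered at 0.05, with 11 false calls. The simulation changed only 200 genes and gave every gene the same dispersion. Its smallest change was larger than the median log2 fold change of all genes called lower (−0.66) or higher (0.55). In the data 50.1% of genes were called, so these rates do not carry over to the KLHL genes. Thresholds were 0.05 and 1e-05. CPM used TMM-scaled libraries and RPKM the union of exons. Coding sequences were aligned with Biopython 1.88 in place of proteins. Promoters came from RefSeq (GRCh38.p14). Markers, gene lists and members were chosen with earlier results of these data known. Counts in full were given for KLHL4, members past 1e-05 and the 3 highest and 3 lowest tested members per length. KLHL17 was also given with its counts, chosen after its values were seen. Each list is named by its 3 largest rises and falls past 0.05, CUL3, RBX1, KEAP1 and substrates of members given in full. Other genes overlap or neighbour a member. Alternatives were DESeq2's size factors and Wald test (DESeq2 1.42.0), library totals alone, no filter, a minimum of 10 counts in all libraries, protein-coding genes alone, loess corrections (span 0.3) for length and GC content, the replicate number as a block and leaving out each library.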

Additional observations from a re-analysis of the deposited data

How the results depend on the processing

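The numbers of KLHL genes other than KLHL4 called at 0.05 (7 lower, 3 higher) stayed at 6 to 8 lower and 2 to 4 higher under every alternative run, leaving out each library included, and their median log2 fold change stayed negative but moved from −0.25 to −0.15 with the length correction (−0.16 with the replicate block added). At 1e-05 the counts moved. The 1 lower gene (KLHL36) became 2 with a GC correction (KLHL21 added), 3 with DESeq2's Wald test (KLHL21 and KLHL26 added) and 5 without a filter (KLHL18 and KLHL20 added to these), and 1 to 3 when a library was left out, with 3 without DMSO replicate 3. The 0 higher genes became 1 (KLHL17) with DESeq2's size factors, DESeq2's Wald test, no filter, the length correction and the GC correction, and 0 to 1 when a library was left out, with 1 without DMSO replicate 3. Of the cullin-3 machinery, the 3 lower genes became 5 without a filter and with the GC correction, and 2 to 5 when a library was left out. Of the substrates, the 4 higher genes became 2 without a filter and 2 to 4 when a library was left out, with 2 without FT671 replicate 3. KLHL28 reversed from 0.20 to −0.0076 without DMSO replicate 1, and leaving out each library gave −0.0076 to 0.29. KLHL5 was called lower with library totals alone, without a filter and with the GC correction (each −0.30) and without DMSO replicate 1 (−0.34), and KLHL24 higher with the length correction (0.30). The cause was not tested. Same-numbered libraries deviated together with correlations of 0.115, −0.0605 and 0.14, so the numbers were not taken to pair them. With the replicate number as a block, 8 KLHL genes were lower (KLHL5 added) and 3 higher at 0.05, and 2 lower (KLHL36 and KLHL21) and 1 higher (KLHL17) at 1e-05. The cullin-3 machinery then had 5 lower genes. The block with the length correction gave 2 lower and 1 higher at 1e-05 and 14 higher machinery genes (9 without either), KLHL42 no longer called (−0.31) and KLHL24 called (0.28). The length correction alone gave 13 higher machinery genes, as did leaving out DMSO replicate 3. The block with the GC correction gave 2 lower and 1 higher at 1e-05 and 5 lower machinery genes. At this depth counts were low or 0 for the 16 KLHL genes that were not tested, and low for KLHL3. With 3 libraries a group, an exact permutation test of a single gene could not go below 0.1.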
